A study of Mus musculus with 7 samples.

Results

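Genes of the NRF2 pathway were examined in kidneys of mice that lack the lamin B receptor (LBR), a protein of the inner nuclear membrane. The set held 10 genes taken by symbol from the table of all genes: Nfe2l2, which encodes NRF2, its inhibitor Keap1, and the target genes Nqo1, Hmox1, Gclc, Gclm, Txnrd1, Srxn1, Gsr and Slc7a11. All 10 were found among the 24328 gene symbols of the files, and all 10 passed the filter on low values. LBR-null mice were homozygous for the loss-of-function allele (Lbric-J/ic-J), and the wild type (WT) mouse was a littermate (Lbr+/+). Both groups were C57BL/6J mice at 4 weeks of age. Polyadenylated RNA of whole kidney was sequenced from 3 LBR-null mice (4001, 4002 and 4007) and 1 WT mouse (4009), with 2 libraries for each mouse except mouse 4002, which gave 1. The sources used here do not state whether the 2 libraries of a mouse came from separate aliquots of the pulverized kidney.

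NRF2 is a transcription factor of the cap'n'collar family. In unstressed cells KEAP1 holds it in the cytoplasm and presents it to a CUL3 ubiquitin ligase for degradation. Electrophiles and oxidants modify cysteines of KEAP1, and the NRF2 that then escapes degradation enters the nucleus, pairs with a small MAF protein and binds antioxidant response elements (ARE) near genes of glutathione synthesis, the thioredoxin system, NADPH supply and detoxification. In kidney the pathway is best known from the tubule, which is rich in mitochondria and takes up toxic solutes. NRF2 is controlled largely at the level of the protein, so the level of Nfe2l2 RNA is not a measure of its activity.

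Promoter sequences are shown for the members whose window held the core of an ARE, since these letters are what NRF2 and its MAF partner are known to read. The windows were those of RefSeq for GRCm38.p6, from 250 bases before to 50 after a gene's start, and were placed by exact match on the mm9 genome used by the study. They were searched on both strands for the core TGACNNNGC and for the AP-1 motif TGANTCA. Windows were given for 7 of the 10 members (9 windows), and Hmox1, Gclc and Gsr had none. The core was found in 4 of the 9 member windows, against 12.4% of all 32851 windows. These belonged to 4 members, and of the windows of Txnrd1 only 1 held it. AP-1 was found in 1 member window, that of Srxn1, against 7.81% of all windows. Shares over genes in place of windows were not computed. Capitals mark the motifs, each sequence reads 5′ to 3′ on the strand of its gene, and a core on the opposite strand appears as its reverse complement. No core overlapped an AP-1 motif.
Nfe2l2, chr2:75542671-75542970, minus strand: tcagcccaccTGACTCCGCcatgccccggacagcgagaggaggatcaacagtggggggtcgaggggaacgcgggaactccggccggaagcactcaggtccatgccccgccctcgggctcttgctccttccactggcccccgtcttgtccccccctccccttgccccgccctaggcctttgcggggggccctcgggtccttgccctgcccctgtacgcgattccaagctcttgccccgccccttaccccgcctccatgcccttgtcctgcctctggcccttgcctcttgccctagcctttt
Srxn1, chr2:151931010-151931309, plus strand: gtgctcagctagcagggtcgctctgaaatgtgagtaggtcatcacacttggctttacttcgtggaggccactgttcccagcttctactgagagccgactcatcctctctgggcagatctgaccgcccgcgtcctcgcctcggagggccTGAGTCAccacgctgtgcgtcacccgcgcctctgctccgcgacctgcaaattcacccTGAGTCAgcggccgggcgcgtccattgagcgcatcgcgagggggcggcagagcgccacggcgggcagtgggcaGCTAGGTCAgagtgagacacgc
Gclm, chr3:121948225-121948524, plus strand: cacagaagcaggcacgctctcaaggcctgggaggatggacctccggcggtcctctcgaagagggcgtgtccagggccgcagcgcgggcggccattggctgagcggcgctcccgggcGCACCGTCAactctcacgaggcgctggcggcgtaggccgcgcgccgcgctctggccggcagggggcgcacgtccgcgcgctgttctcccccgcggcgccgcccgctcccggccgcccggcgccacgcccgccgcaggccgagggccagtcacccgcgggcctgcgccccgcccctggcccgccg
Txnrd1, chr10:82321701-82322000, plus strand: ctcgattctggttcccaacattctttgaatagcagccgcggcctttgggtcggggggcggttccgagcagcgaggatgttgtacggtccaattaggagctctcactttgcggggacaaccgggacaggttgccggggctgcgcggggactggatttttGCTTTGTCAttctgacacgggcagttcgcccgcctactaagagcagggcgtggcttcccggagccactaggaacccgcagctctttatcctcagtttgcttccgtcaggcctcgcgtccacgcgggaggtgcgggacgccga
The core of Nfe2l2 began at position -240 from the start and read TGACTCCGC. The cores of Gclm (position -134, TGACGGTGC), Txnrd1 (position -92, TGACAAAGC) and Srxn1 (position 29, TGACCTAGC) lay on the opposite strand. The Srxn1 window held the AP-1 motif TGAGTCA at 2 places, positions -102 and -45. The site at -45 was followed by gc and so read TGAGTCAGC, which differs from the core only in having G where the core has C. The search did not take in this form, so it was marked as AP-1 alone. The windows of Keap1, Nqo1 and Slc7a11 held neither motif, which says only that these letters are not within them. Such a match is a description of letters, and binding was not measured. The windows also differed in CpG content, with an observed over expected ratio from 0.153 to 0.963 among the 3 windows of Txnrd1, 0.249 for Nqo1, 0.271 for Slc7a11, 0.544 for Nfe2l2, 0.610 for Keap1, 0.838 for Srxn1 and 1.01 for Gclm. The median was 0.610 over the 9 member windows and 0.384 over all windows.

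The libraries held 20694016 to 26333284 reads on genes. Values are normalized counts, that is, read counts divided by the size factor of a library. Libraries were averaged within a mouse, and differences were tested on log2(normalized counts + 1) of mouse means over 17283 genes. WT mice are represented by 1 animal, which was taken to vary like the LBR-null mice. Lbr, the mutated gene, had 378 ± 81.8 normalized counts (SD, n = 3) in LBR-null mice and 398 in the WT mouse. Its log2 fold change was -0.10 (SE 0.32), and its libraries overlapped between the groups. This level did not tell the groups apart, so it does not check the genotypes. In mice 4001, 4002, 4007 and 4009 the inactive X transcript Xist was at 5785, 65.3, 9940 and 35.5 normalized counts, and Ddx3y, on the Y chromosome, had 141, 1516, 44.3 and 1284. Both transcripts were read in every mouse, and mouse 4002 was the LBR-null mouse with Xist nearest to the WT mouse.

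The members did not differ from WT in 1 direction. Gclc and Slc7a11 were higher in all 5 LBR-null libraries than in both WT libraries. Keap1, Gclm, Txnrd1 and Srxn1 were lower in all 5. The libraries of Nfe2l2, Nqo1, Hmox1 and Gsr overlapped. Groups thus did not overlap for 60% of the members, against 51.1% of all genes tested (25.5% higher and 25.7% lower), so this count lies near the background. Under TMM scaling, or without any 1 of the LBR-null mice, 7 members did not overlap in place of 6, with Nqo1 added as lower under TMM. The share over all genes was not computed under these settings, so this higher count has no background beside it. Leaving out a mouse can only keep or raise such a count, for members and for all genes alike. Limma with Benjamini-Hochberg adjustment called 0 of the 10 members at a 2-fold change with an adjusted p of 0.05, and it called 0% of all genes in either direction. At an unadjusted p of 0.05, 1 member was higher (Gclc) and 1 lower (Gclm), where 10.7% and 8.05% of all genes were. EdgeR on recovered reads called 0 members, against 0.00579% of all genes higher and 0.156% lower. DESeq2 on recovered reads called 1 member, Gclc, against 3.08% of all genes higher and 3.33% lower. Means differed at least 2-fold upward for 2 members, Gclc and Slc7a11, against 14.5% of all genes, and downward for 0 members, against 7.04%. The median log2 fold change was -0.25 over the members and 0.01 over all genes tested. In bulk kidney RNA, fewer cells of a type and less RNA per cell cannot be told apart.

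**Figure D1:**
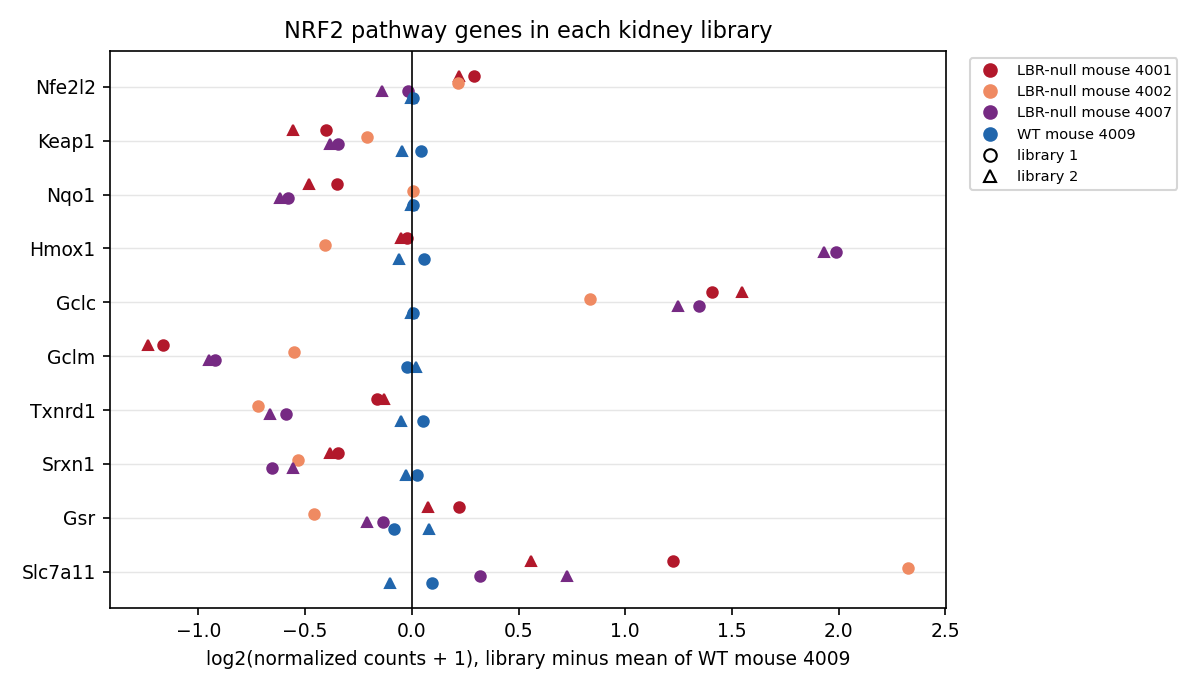
Each point is 1 library, plotted as the difference on the log2(normalized counts + 1) scale from the mean of WT mouse 4009, with genes on the vertical axis, mice in colour and the library number as the symbol. Gclc and Slc7a11 lie right of both WT points in all 5 LBR-null libraries, Keap1, Gclm, Txnrd1 and Srxn1 lie left of them, and Hmox1 lies far to the right in mouse 4007 alone.

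Of both regulators, Nfe2l2 overlapped with WT and Keap1 was lower in every LBR-null library. Nfe2l2 (mm9 chromosome 2, 75513570 to 75542698, minus strand) was at 2987 and 2842 normalized counts in mouse 4001, 2837 in mouse 4002, 2411 and 2214 in mouse 4007, and 2448 and 2429 in the WT mouse. Mice 4001 and 4002 lay above both WT libraries and mouse 4007 lay below them. The log2 fold change was 0.13 (SE 0.26), with an adjusted p of 0.822 by limma. Keap1 (chromosome 9, 21034174 to 21043776, minus strand) was at 1066 and 957 normalized counts in mouse 4001, 1217 in mouse 4002, 1108 and 1079 in mouse 4007, and 1451 and 1362 in the WT mouse. All LBR-null libraries were below both WT libraries. The mean was 1107 ± 103 (SD, n = 3) against 1407, a log2 fold change of -0.35 (SE 0.24, 95% interval -0.93 to 0.23) with an adjusted p of 0.483 by limma. The gene models of Keap1 and the noncoding gene Gm16754 on the opposite strand share 510 bases of exon. The sources used here do not say whether counting used strand, so reads from both cannot be told apart.

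Among the members the lowest limma p-values belonged to both subunits of glutamate-cysteine ligase, the first and rate-limiting enzyme of glutathione synthesis, which differed in opposite directions. Gclc encodes the catalytic subunit (chromosome 9, 77602342 to 77642292, plus strand). It was at 10380 and 11438 normalized counts in mouse 4001, 6988 in mouse 4002, 9954 and 9296 in mouse 4007, and 3927 and 3906 in the WT mouse. The lowest LBR-null library, that of mouse 4002, was well above both WT libraries. The mean of 9174 ± 1999 (SD, n = 3) was 2.34-fold the WT value, and single mice were at 2.79-, 1.78- and 2.46-fold in the order 4001, 4002, 4007. On the log2 scale the difference was 1.20 (SE 0.34, 95% interval 0.37 to 2.03). The adjusted p was 0.142 by limma, 0.169 by edgeR and 0.0197 by DESeq2.

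Gclm encodes the modifier subunit, which lowers the amount of glutamate the enzyme needs and eases its inhibition by glutathione. It lies on chromosome 3 from 121948475 to 121972902 on the plus strand, and the last 50 bases of the window printed above are its first. Its normalized counts were 2698 and 2573 in mouse 4001, 4126 in mouse 4002, 3196 and 3140 in mouse 4007, and 5974 and 6146 in the WT mouse. The highest LBR-null library was again that of mouse 4002, and it was below both WT libraries. The WT value was 1.83-fold the LBR-null mean of 3310 ± 755 (SD, n = 3), a log2 fold change of -0.90 (SE 0.32, 95% interval -1.67 to -0.13). The adjusted p was 0.206 by limma, 0.207 by edgeR and 0.133 by DESeq2. Gclm shares 296 bases of exon with the noncoding gene Gm17494 on the opposite strand, so the limit on strand given for Keap1 holds here too.

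The ratio of Gclc to Gclm normalized counts set both subunits side by side within a library. It was 3.85 and 4.44 in mouse 4001, 1.69 in mouse 4002, 3.11 and 2.96 in mouse 4007, and 0.657 and 0.636 in the WT mouse. Each LBR-null library was above both WT libraries, which follows from the separation of Gclc and of Gclm. The ratio depends on transcript lengths as well, so a value of 1 has no meaning of its own. The LBR-null mean was 2.96 ± 1.22 (SD, n = 3), 4.57-fold the WT ratio of 0.646, and single mice ranged from 2.62- to 6.40-fold. The ratio was formed after the values were seen and is given with no test. Mouse 4002 was nearest to the WT mouse for both genes and for the ratio. It was also the LBR-null mouse nearest to the WT mouse in the sex-linked transcripts, with Xist at 65.3 and Ddx3y at 1516 normalized counts against 35.5 and 1284, while mice 4001 and 4007, at ratios of 4.14 and 3.04, had Xist at 5785 and 9940. Between mouse 4002 and the WT mouse alone, Gclc was at 1.78-fold and Gclm at 0.681 of the WT value. The part of sex in the size of these differences was not tested.

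**Figure D2:**
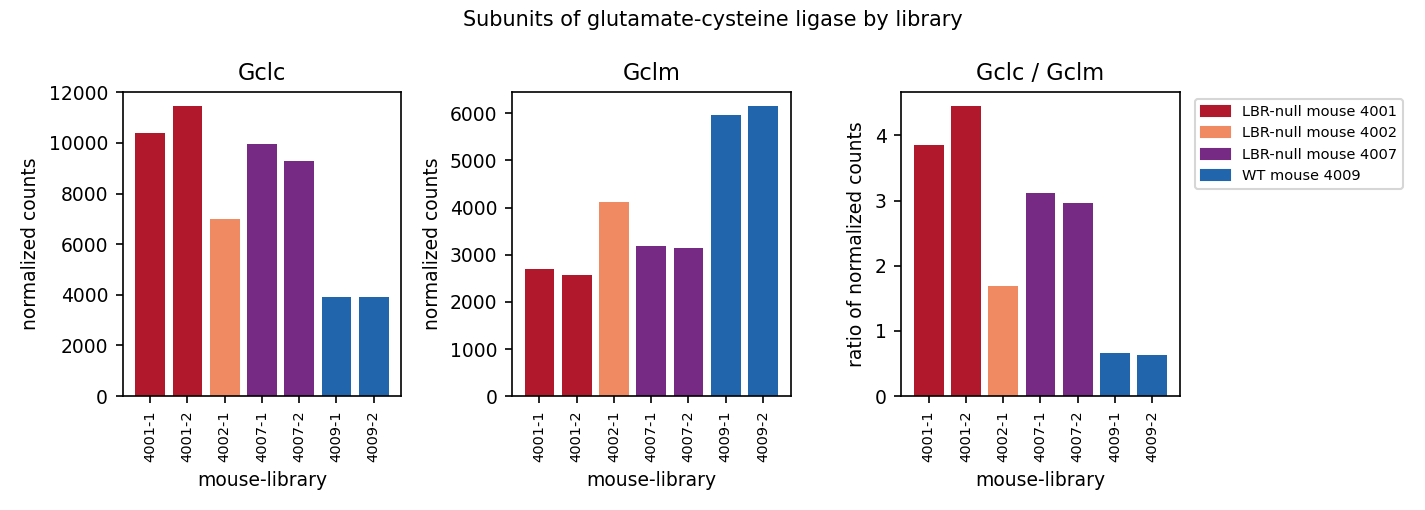
Bars give normalized counts of Gclc (left) and Gclm (middle) and their ratio (right) in each library, named by mouse and library number and coloured by mouse, on linear axes from 0. Every LBR-null library has more Gclc and less Gclm than the WT libraries, and the ratio is 1.69 to 4.44 against 0.636 and 0.657.

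Gsr and Slc7a11 complete the glutathione branch among the members. Gsr encodes glutathione reductase, which returns oxidized glutathione to its reduced form with NADPH (chromosome 8, 34762995 to 34808635, plus strand). It was at 3430 and 3107 normalized counts in mouse 4001, 2143 in mouse 4002, 2681 and 2548 in mouse 4007, and 2777 and 3111 in the WT mouse. The groups overlapped, with mouse 4001 at or above the WT level, and the log2 fold change of -0.16 (SE 0.30) had an adjusted p of 0.817 by limma.

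Slc7a11 encodes the cystine carrier xCT, which brings in the cysteine from which glutathione is made (chromosome 3, 50168858 to 50247535, minus strand). It was at 28.7 and 17.7 normalized counts in mouse 4001, 62.8 in mouse 4002, 14.9 and 20.1 in mouse 4007, and 12.6 and 10.9 in the WT mouse. Every LBR-null library was above both WT libraries, but these values rest on 12 to 73 reads. Exact Poisson 95% intervals, which cover counting error only, ran from 49.2 to 78.9 normalized counts in mouse 4002, and those of the library at 14.9 (8.52 to 24.2) and of the WT library at 12.6 (7.20 to 20.5) overlapped. The mean was 34.5 ± 24.7 (SD, n = 3) against 11.7, 2.94-fold, and single mice were at 1.98-, 5.35- and 1.49-fold. The log2 fold change of 1.26 (SE 0.76) had an adjusted p of 0.423 by limma. Without mouse 4002 the fold was 1.74, so the place of Slc7a11 among the 2-fold higher genes rests on this library.

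Both members of the thioredoxin branch were lower in every LBR-null library. Txnrd1 encodes the cytosolic thioredoxin reductase, a selenoprotein that reduces thioredoxin with NADPH (chromosome 10, 82296696 to 82360469, plus strand). It was at 2461 and 2512 normalized counts in mouse 4001, 1671 in mouse 4002, 1831 and 1735 in mouse 4007, and 2851 and 2652 in the WT mouse. Mouse 4001 was close to the WT mouse at 0.904 of its value, while mice 4002 and 4007 were at 0.607 and 0.648. The log2 fold change was -0.50 (SE 0.30), with an adjusted p of 0.427 by limma. Srxn1 encodes sulfiredoxin, which repairs overoxidized peroxiredoxins (chromosome 2, 151931252 to 151937112, plus strand). It was at 939 and 917 normalized counts in mouse 4001, 825 in mouse 4002, 758 and 811 in mouse 4007, and 1217 and 1172 in the WT mouse. The LBR-null mice lay close together at 846 ± 73.9 (SD, n = 3) against 1195. The log2 fold change of -0.50 (SE 0.24, 95% interval -1.08 to 0.08) had an adjusted p of 0.326 by limma.

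Nqo1 and Hmox1, often used as markers of NRF2 activity, differed between the LBR-null mice. Nqo1 encodes a quinone reductase (chromosome 8, 109912125 to 109927106, minus strand). Its normalized counts were 1758 and 1604 in mouse 4001, 2249 in mouse 4002, 1499 and 1457 in mouse 4007, and 2248 and 2230 in the WT mouse. Mouse 4002 was at the WT level and the other LBR-null mice were below it, at 0.751 and 0.660 of the WT value. The log2 fold change was -0.33 (SE 0.30), with an adjusted p of 0.599 by limma. Mice 4001 and 4007, with low Nqo1, were those with high Xist, and the part of sex in this difference was not tested.

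Hmox1 encodes heme oxygenase 1, which breaks down heme and is induced by heme as well as by NRF2 (chromosome 8, 77617490 to 77624495, plus strand). It was at 424 and 414 normalized counts in mouse 4001, 324 in mouse 4002, 1707 and 1645 in mouse 4007, and 447 and 413 in the WT mouse. Both libraries of mouse 4007 stood far above all others, at 3.90-fold the WT value for the mouse, while mice 4001 and 4002 were at 0.975 and 0.754. The log2 fold change over the 3 mice was 0.51 (SE 0.86, 95% interval -1.57 to 2.58), with an adjusted p of 0.795 by limma. Without mouse 4007 it was -0.22, with an adjusted p of 0.935 by limma. The summed level of the 9 neutrophil genes was also highest in mouse 4007, at 2584 normalized counts against 1115 in mouse 4001, 455 in mouse 4002 and 202 in WT kidney. The sum of the 12 macrophage genes was lowest in mouse 4007, at 3638 against 3845, 3779 and 4789 in the same order. The part of these cells in the level of Hmox1 was not tested.

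**Figure D3:**
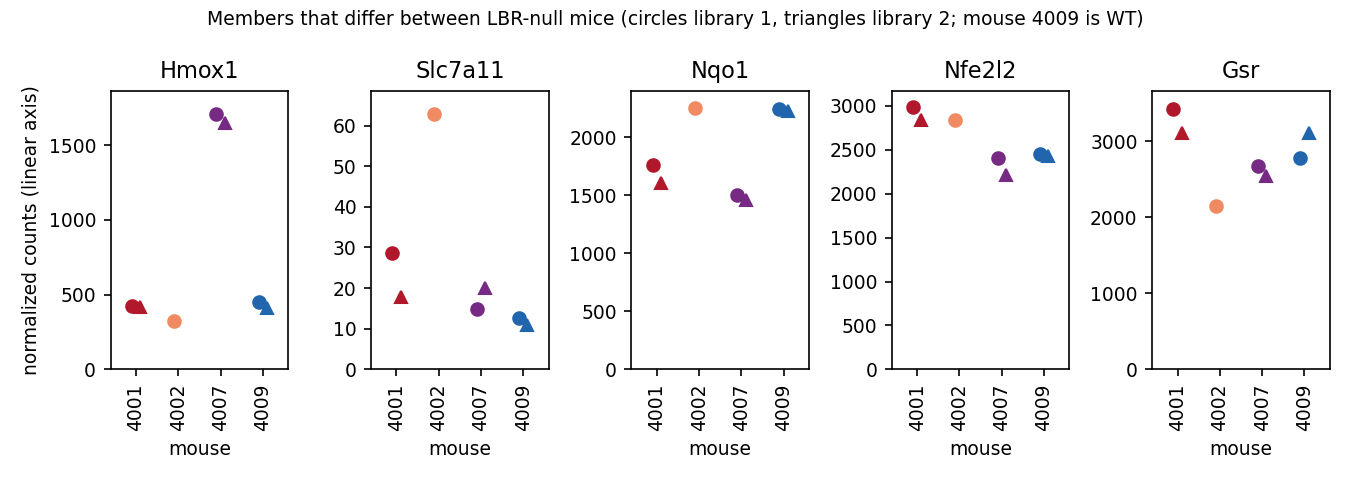
Normalized counts on linear axes from 0 are shown by mouse for 5 members, with circles for library 1 and triangles for library 2, and mouse 4009 as the WT mouse. Hmox1 is high in mouse 4007 alone, Slc7a11 is highest in mouse 4002, Nqo1 of mouse 4002 is at the WT level, and Nfe2l2 and Gsr scatter around it.

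Both libraries of a mouse were within 1.12-fold of each other for every member except Slc7a11, for which they differed by up to 1.62-fold. In mice 4001 and 4002, 4 members were above and 6 below the WT value, and in mouse 4007, 3 were above and 7 below. Levels of different members were compared per kilobase of exon in the GENCODE gene models, which may not be those used for counting. In the WT mouse Nqo1 led at 1442 normalized counts per kilobase, followed by Gclm at 1180, Gclc at 1144 and Gsr at 1069. In LBR-null mice Gclc led at 2680 ± 584 (SD, n = 3) normalized counts per kilobase, above Nqo1 at 1161 ± 257 by more than their spread, and Nqo1 and Gsr at 971 ± 205 did not differ beyond it. Gclm came after Nfe2l2, at 644 ± 147 against 708 ± 86.3 per kilobase, a gap within their spread. Slc7a11 was lowest in both groups, at 3.07 ± 2.19 and 1.04 per kilobase.

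Other genes of the pathway were described from lists, by counts and medians, with no test of a list. Over all genes tested, 25.5% were higher and 25.7% lower in all 5 LBR-null libraries, 10.7% were higher and 8.05% lower at an unadjusted p of 0.05, and the median log2 fold change was 0.01. The counts of each list are to be read against these shares. Limma with Benjamini-Hochberg adjustment called 0 genes in each list by the same limits, so every gene below is given by its values. Of 17 regulators and partners of NRF2, 6 were higher and 4 lower in all 5 LBR-null libraries, and at an unadjusted p of 0.05, 2 were higher and 1 lower. The median log2 fold change was 0.13. Maff and Mafk, small MAF partners of NRF2, were at 438 ± 154 and 1452 ± 324 normalized counts (SD, n = 3) against 106 and 748 in the WT mouse. Their log2 fold changes were 1.98 (SE 0.42) and 0.93 (SE 0.31), with adjusted p of 0.108 and 0.183 by limma, 0.120 and 0.195 by edgeR, and 0.00092 and 0.110 by DESeq2. The third small MAF of the list, Mafg, overlapped between groups, with a log2 fold change of -0.09. Bach1, a repressor that competes for the same elements, had a log2 fold change of 0.62 (SE 0.32). Btrc, a substrate adaptor of another ubiquitin ligase that can take up NRF2, had one of -0.65 (SE 0.25).

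Of 11 further genes of glutathione synthesis and turnover, 3 were higher and 7 lower in all 5 LBR-null libraries, and at an unadjusted p of 0.05, 1 was higher and 5 lower. Their median log2 fold change was -0.82. Gss, which carries out the second step of glutathione synthesis after glutamate-cysteine ligase, was at 3619 ± 889 normalized counts against 7862, a log2 fold change of -1.15 (SE 0.35, limma adjusted p 0.159). Ggct, of the gamma-glutamyl cycle, was at 402 ± 43.2 against 1094 (log2 fold change -1.45, limma adjusted p 0.0938). The peptidases Dpep1 and Anpep of the tubular brush border had log2 fold changes of -1.07 and -1.31. On the other side, Mgst1, a membrane-bound glutathione transferase, was at 5029 ± 1649 against 1838 (log2 fold change 1.39), and Glrx, glutaredoxin, was at 1338 ± 590 against 535 (log2 fold change 1.21). With Gclc thus higher than in the WT mouse in every LBR-null library, Gclm and Gss were lower in every one.

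Of 12 further genes of the thioredoxin system, 2 were higher and 8 lower in all 5 LBR-null libraries, with a median log2 fold change of -0.43, and at an unadjusted p of 0.05, 1 was higher and 0 lower. The higher one was Txnip, which binds and inhibits thioredoxin. It was at 44338 and 41103 normalized counts in mouse 4001, 17824 in mouse 4002, 39265 and 38297 in mouse 4007, and 7427 and 7317 in the WT mouse. Its log2 fold change was 2.07 (SE 0.57), with an adjusted p of 0.136 by limma, 0.147 by edgeR and 0.00103 by DESeq2. Thioredoxin itself, Txn1, was at 7302 ± 1837 against 11906 (log2 fold change -0.74), a value that is uncertain because reads of processed copies of the gene may be counted apart or dropped.

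The 10 genes of the supply of NADPH, which Gsr and Txnrd1 use as a cofactor, gave the lowest median of the pathway lists, -0.86. In all 5 LBR-null libraries 8 were lower and 1 was higher, and at an unadjusted p of 0.05, 5 were lower and 0 higher. Malic enzyme, Me1, was at 1424 and 1270 normalized counts in mouse 4001, 1205 in mouse 4002, 774 and 813 in mouse 4007, and 5243 and 5451 in the WT mouse. Its log2 fold change was -2.30 (SE 0.34), with an adjusted p of 0.0843 by limma, 0.0641 by edgeR and 9.9e-07 by DESeq2. Isocitrate dehydrogenase 1, Idh1, was close to equal in the LBR-null mice at 3245 ± 116 (SD, n = 3), against 10914 in the WT mouse. Its log2 fold change was -1.75 (SE 0.25), with an adjusted p of 0.0800 by limma, 0.0641 by edgeR and 3.72e-08 by DESeq2. Rpia and Tkt, of the pentose phosphate pathway, had log2 fold changes of -1.23 and -1.03.

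Of 25 enzymes that act on quinones, aldehydes and xenobiotics, 2 were higher and 12 lower in all 5 LBR-null libraries, with a median log2 fold change of -0.34, and at an unadjusted p of 0.05, 1 was higher and 4 lower. The carbonyl reductase Cbr3 was at 743 ± 197 normalized counts against 293 (log2 fold change 1.31). Aox1, aldehyde oxidase, had a log2 fold change of 0.74. The glutathione transferases Gstp1 and Gstm4 had log2 fold changes of -1.37 and -0.97, though reads of their near-identical relatives may be split. Akr1b8 had a log2 fold change of -1.09, and the epoxide hydrolase Ephx2 was at 1576 ± 175 normalized counts against 3145.

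Of 11 genes of heme and iron handling, 3 were higher and 1 lower in all 5 LBR-null libraries, with a median log2 fold change of 0.08 and 0 genes past an unadjusted p of 0.05 in either direction. The ferritin chains had log2 fold changes of opposite sign, 0.66 (SE 0.65) for Fth1 and -0.88 (SE 0.46) for Ftl1. Fth1 was at 1.11-fold the WT value in mouse 4002, against 1.87- and 1.92-fold in mice 4001 and 4007. Both genes are also uncertain because of processed copies. Tfrc, the transferrin receptor, and Hpx, which binds free heme, had log2 fold changes of 0.74 and 0.97. The value of Hpx rests on mouse 4001, since its LBR-null mean was 2.44-fold the WT value with all mice and 1.27-fold without this one. Hpx was at 1117 and 672 normalized counts in mouse 4001, where the sum of 8 hepatocyte genes was also highest, at 23694 against 11583 and 9861 in mice 4002 and 4007 and 6558 in WT kidney. The part of liver-type transcripts in this value was not tested. Of 7 export pumps 1 was higher and 2 lower in all 5 LBR-null libraries, with a median of -0.15 and 1 higher and 1 lower at an unadjusted p of 0.05. Abcc1, which exports glutathione conjugates, was at 0.73, Abcc3 at -0.80 and Abcg2 at -0.73 on the log2 scale.

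Slc7a11 is also a target of ATF4, the transcription factor of amino acid stress. Of 14 genes of the ATF4 list, 6 were higher and 4 lower in all 5 LBR-null libraries, with a median log2 fold change of 0.00, and at an unadjusted p of 0.05, 4 were higher and 2 lower. Trib3, Ddit4, Cebpb and the amino acid carrier Slc7a5 had log2 fold changes of 1.79, 1.43, 1.06 and 0.92. The biosynthetic genes Phgdh, Shmt2 and Asns were at -1.40, -0.93 and -0.72. Atf4 itself overlapped between groups, with a log2 fold change of 0.04. Against 3.08% of all genes higher and 3.33% lower, DESeq2 called 1 regulator (Maff), 1 gene of glutathione turnover higher and 4 lower, 1 gene of the thioredoxin system higher, 4 genes of NADPH supply lower, 1 xenobiotic enzyme higher and 2 lower, and 2 genes of the ATF4 list higher. EdgeR called 0 genes in each of these pathway lists.

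**Figure D4:**
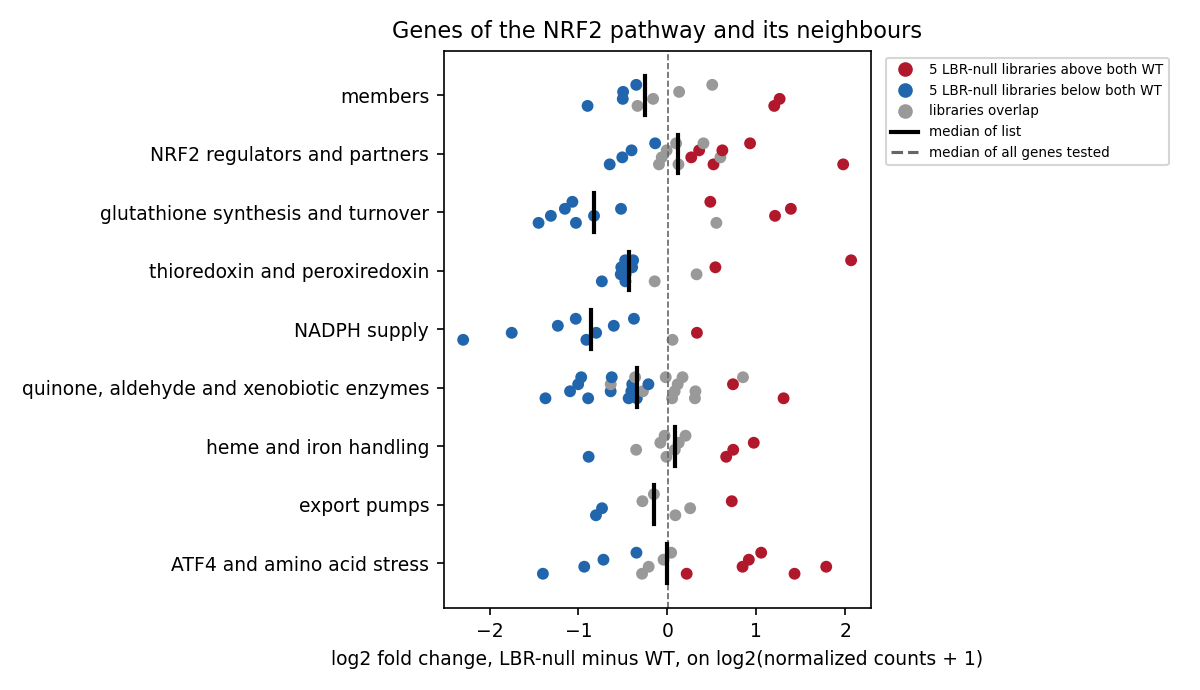
Each point is 1 gene, placed by its log2 fold change (LBR-null minus WT, on log2(normalized counts + 1)) in the row of its list, in red or blue where all 5 LBR-null libraries lie above or below both WT libraries and in grey where libraries overlap. Thick lines are list medians and the dashed line is the median of all genes tested, 0.01, with NADPH supply (-0.86) and glutathione turnover (-0.82) farthest to the left.

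Markers of kidney cell types differed along with these genes, and all lists had 0 genes at 0 in every library. Of 12 proximal tubule genes, 3 were higher and 8 lower in all 5 LBR-null libraries, with a median log2 fold change of -1.63. Their sum was 146321 to 192383 normalized counts in LBR-null libraries against 215382 and 215977. The phosphate carrier Slc34a1 and the endocytic receptor Lrp2 were at 21038 ± 7499 and 8188 ± 3368 normalized counts against 64099 and 23320, so the defining markers of kidney tubule were present in every library. Of 10 genes of other nephron segments 2 were higher and 3 lower, with a sum of 104569 to 198882 against 126151 and 126970. Neutrophil genes were higher for 6 of 9 tested and lower for 1, with a sum of 455 to 2637 against 197 and 207, and S100a8 was at 513 ± 377 normalized counts against 50.1, 10.2-fold, or 6.27-fold without mouse 4007.

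Macrophage genes were higher for 3 and lower for 7 of 12, with a sum of 3560 to 4061 against 4769 and 4809, and the defining markers Adgre1 and Cd68 had log2 fold changes of -0.80 and -0.57. Of 8 hepatocyte genes 3 were higher and 0 lower, with a sum of 9775 to 28103 against 6443 and 6674. Of 8 adipocyte genes 1 was higher and 5 lower, with a median log2 fold change of -2.46, and their sum of 94145 to 197490 against 45562 and 45669 was mostly Pck1, which the kidney tubule also expresses. Of 6 erythroid genes tested 1 was higher and 4 lower, with a sum over the listed genes of 965 to 1153 against 2604 and 2726. Of 8 endothelial and fibroblast genes 0 were higher and 4 lower, with a sum of 20399 to 31666 against 36395 and 36889. Of 7 injury genes tested 1 was higher and 4 lower, with a sum of 17220 to 26591 against 44998 and 46055, while Havcr1 was below the filter at 3.74 ± 3.10 normalized counts against 6.94, a ratio of 0.539, or 0.286 without mouse 4001. The part of cell composition in the differences of Gclc, Gclm the other members and the pathway lists was not tested.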

How the data were processed

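Kidney RNA-seq libraries were grouped by the genotype in the labels. Per the submitters' processing notes, reads were aligned to mm9 with STAR 2.6.0, and the authors deposited a normalized signal per gene, that is, counts divided by DESeq2 1.25.1 size factors. The counting program, its strand setting and its annotation are not given in the sources used here. Reads were recovered from the signal steps (100% of values whole within 0.01 read) for edgeR 4.0.16 and DESeq2 1.42.0, run on reads summed per mouse. Limma 3.58.1 (R 4.3.3, eBayes with a trend) was fitted to log2(normalized counts + 1) of mouse means over the 17283 genes whose mean reached 5, with 2 residual degrees of freedom and Benjamini-Hochberg adjustment over all of them. The limma, edgeR and DESeq2 fits were run on simulated counts in which the WT mouse varied like the LBR-null mice. That run therefore cannot check this assumption for the real mice. Replicates are mice, and with 1 WT mouse p-values measure the spread between LBR-null mice.

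The members and lists were chosen with earlier results of these data known. Named genes were the 10 members and, per pathway list and direction, up to 4 genes with the largest log2 fold change among those at least 1.5-fold apart whose libraries did not overlap. Mafg, Atf4 and Pck1 were named after their values were seen. Marker lists gave counts and sums, with Slc34a1, Lrp2, Adgre1, Cd68, S100a8, Havcr1 and Lbr named. Alternatives were other scalings, pseudocounts, filters, tools and left-out mice or libraries.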

Additional observations from a re-analysis of the deposited data

Results flagged for a closer look

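Over the 5 LBR-null libraries, 5 of 53 genes examined had 1 library far from the other 4, by Dixon's ratio of the gap to the range. Chance gives about 1 in 20 for independent values, but this rate does not apply here: the 5 libraries came from 3 mice, and the single library of mouse 4002, the one that stood apart in each case, has no paired library near it. Slc7a11 was at 62.8 normalized counts there, against 14.9 to 28.7 in the other LBR-null libraries and 10.9 and 12.6 in the WT libraries, so the library lay farther from WT than the rest. The 4 other genes were nearer to the WT libraries in mouse 4002, which was also the LBR-null mouse nearest to the WT mouse in Xist (65.3 against 35.5 normalized counts, with 5785 and 9940 in mice 4001 and 4007) and Ddx3y (1516 against 1284, with 141 and 44.3). The part of sex in these values was not tested. Mgst1 was at 3142 (others 5610 to 6610, WT 1836 and 1840), Txnip at 17824 (others 38297 to 44338, WT 7317 and 7427), Phgdh at 614 (others 288 to 366, WT 1030 and 1085) and Shmt2 at 2330 (others 1463 to 1593, WT 3344 and 3355).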

How the results depend on the processing

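No paired analysis was possible because library numbers name the libraries of 1 mouse, which were averaged before the fit, and no mouse is in both groups. Of 936 comparisons (52 genes under 18 alternatives), 894 kept direction and side of the threshold, 40 passed the threshold under the alternative only, and 2 reversed. Hmox1 reversed to -0.22 without mouse 4007, and its log2 fold change ranged from -0.22 to 0.96 over left-out mice and libraries. Lbr reversed to 0.0067 without mouse 4001 and ranged from -0.27 to 0.0067. DESeq2 called 1 member in place of 0. Members whose groups did not overlap numbered 6, or 7 under TMM scaling and without each LBR-null mouse in turn. The share over all genes was not computed under these settings, and leaving out a mouse can only keep or raise such a count. The number of members 2-fold apart was 2, or 3 without mouse 4001 (Hmox1 added at 2.33-fold) and 3 without mouse 4002 (Hmox1 at 2.44-fold and Gclm at 0.479 added, Slc7a11 lost at 1.74-fold). The ratio of Gclc to Gclm, an alternative added after the data were seen, was 2.37 to 3.59 with 1 LBR-null mouse left out. Over all genes limma called 0 higher and 0 lower, but 435 and 602 without mouse 4001, 396 and 320 without mouse 4002, 7 and 22 without library 4007-2, and 1 and 0 without library 4009-1. EdgeR called 1 and 27, and DESeq2 533 and 576. Scalings moved the median of all genes by less than 0.1 on the log2 scale. Depth limits Slc7a11, at 12 to 73 reads per library.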
